A study of Mus musculus with 6 samples.

Results

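This account covers 8 genes of the pathway that runs from insulin-type receptors through phosphoinositide 3-kinase (PI3K) and AKT to the FoxO transcription factors: the adaptors Irs1 and Irs2, the phosphatase gene Inpp5d, the kinases Akt1 and Akt2, and the factors Foxo1, Foxo3 and Foxo4. They were taken by symbol from a deposited count table of 55421 mouse genes, and all 8 symbols were present. The table holds 6 RNA-seq libraries of leukemia cells from bone marrow of C57BL/6 mice, 3 labelled AE9a-Ddit4+/+ (wild type) and 3 labelled AE9a-Ddit4-/- (knockout). Both groups share the oncogene AML1-ETO9a (AE9a), a truncated AML1-ETO fusion that drives acute myeloid leukemia in mice. According to the study's methods, a retrovirus that also marks cells with GFP brought it into c-Kit+ blood stem and progenitor cells from donors with or without Ddit4, which then went into irradiated recipients. The donors were 6 to 8 weeks old. The labels add that equal numbers of GFP+ leukemia cells were passed on to recipients given a lower dose of radiation, and that the cells were kept in IMDM with serum. The promoter driving AE9a and the part of Ddit4 that the knockout allele lacks were not resolved here. The study describes cells from bone marrow of transplanted mice and gives the same n in each group as there are libraries. Whether each library is 1 mouse and a separate leukemia is not stated, so p-values measure the spread between these libraries, which may be technical. The study reports that fewer mice first given AE9a-Ddit4-/- cells developed leukemia than there are knockout libraries here. If all 3 knockout libraries descend from those mice, some of them share a leukemia of origin. Genotype then cannot be told apart from differences between single leukemias. Because these are bulk samples, fewer cells of a type and less RNA per cell cannot be told apart.

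Growth factor receptors activate class I PI3K, often through IRS adaptors, and PI3K makes the membrane lipid PIP3. PIP3 recruits AKT to be activated, while phosphatases such as SHIP1 (the product of Inpp5d) remove it. Active AKT phosphorylates FoxO proteins, which then leave the nucleus, so the mRNA level of a FoxO gene does not give the activity of its protein. In blood stem cells FoxO factors are known for quiescence and protection from oxidative stress, and SHIP1 is known as a brake on PI3K signaling in blood cells. Ddit4 acts further along, as a stress-induced inhibitor of mTORC1.

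Library totals ran from 62141558 to 72717681 counts. Values are given below as CPM, counts scaled to 1000000 per library with TMM factors. The targeted gene Ddit4 stood at 84.9, 77.7 and 85.9 CPM in the knockout libraries and at 228, 161 and 342 CPM in the wild-type libraries (log2 fold change -1.56, adjusted p = 0.00635 by edgeR's quasi-likelihood test with Benjamini-Hochberg adjustment). The groups did not overlap, and Ddit4 transcript was still counted in each knockout library. At the protein level, the study reports by western blot that AE9a-Ddit4-/- leukemia cells lacked DDIT4 completely. The groups also differed beyond the pathway. Ddx3y, on the Y chromosome, was at most 0.0774 CPM in the wild-type libraries and 88.2 to 125 CPM in the knockout libraries, so genotype and sex of the cells cannot be told apart. Xist, which is expressed from the inactive X chromosome of female cells, stood at 566 to 1032 CPM in the wild-type and at 63.2, 20.3 and 129 CPM in the knockout libraries, so it was counted in libraries with Ddx3y as well. Reads of mitochondrial genes made up 5.03% to 7.90% of wild-type and 11.3% to 16.4% of knockout libraries, and Kit, a marker of progenitors, stood at 14.6 to 31.6 against 304 to 509 CPM. Cd34, another progenitor marker, stood at 2.26 to 9.83 against 493 to 558 CPM. Runx1t1, the mouse gene of the ETO part of the fusion, stood at 6.47 to 18.1 in the wild-type and 69.9 to 206 CPM in the knockout libraries, and how far its reads come from the AE9a transgene was not tested. The part of these differences in the results below was not tested either.

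Of the 8 genes, 7 had enough reads to be tested. Foxo1 and Inpp5d rose in the knockout libraries, none of the 7 fell at the threshold, and 5 did not pass it. DESeq2 gave 0 lower as well, and at an unadjusted p below 0.05 in edgeR there was 1, Akt1. Past the threshold means an adjusted p below 0.05, and over all 18375 genes tested the share past it was 30.1%, with 19.4% higher and 10.7% lower. The 2 of 7 that were higher (28.6%) thus lay close to the share past the threshold in either direction. In 3 of the 7 (Foxo1, Inpp5d and Akt1) the groups did not overlap, beside 50.1% of all genes tested. The median log2 fold change of the 7 was 0.02, beside 0.04 over all genes. Each fold change below divides the knockout level by that of wild type.

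**Figure D1:**
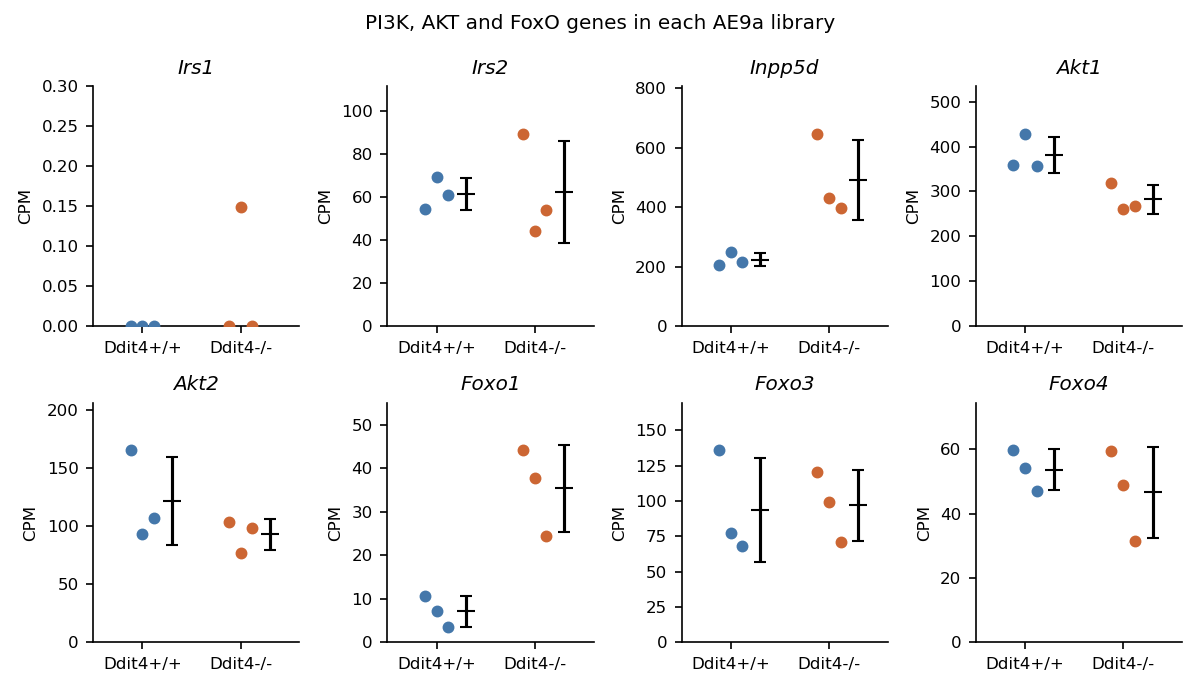
CPM of each of the 8 genes (y axis, linear, from 0; each panel has its own scale) in the 3 AE9a-Ddit4+/+ libraries (blue) and the 3 AE9a-Ddit4-/- libraries (orange); points are libraries and black marks are the mean and SD of 3 libraries, left out for Irs1. Foxo1 and Inpp5d lie higher in all 3 knockout libraries, Akt1 lies lower in all 3, and the other groups overlap.

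At the top of the pathway, Irs1 was not detectable at this depth. This adaptor carries signals of insulin and IGF1 receptors in many tissues. It had 0 counts in each wild-type library and 0, 9 and 0 counts in knockout libraries 1, 2 and 3. All of these lie under the limit of 12 counts set here for detection, which is 0.163 to 0.198 CPM and covers counting error only. The Irs1 locus (chr1:82233101-82291416, minus strand, GRCm38) shares 2822 of its 9144 exon bases with Gm9747 on the other strand, which had 0 counts in the wild-type libraries and 5, 8 and 0 in the knockout libraries. Whether the authors' counting used strand is not given in the sources used here, so the few reads cannot be assigned to one of the pair.

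Irs2, the adaptor that links cytokine receptors as well as insulin receptors to PI3K, had reads in each library. So did Irs3, outside the members, with 21, 8 and 5 counts in the wild-type and 14, 24 and 8 in the knockout libraries. Irs2 stood at 89.5, 44.2 and 53.8 CPM in the knockout libraries and at 54.3, 69.4 and 61.0 CPM in the wild-type libraries. The groups overlapped, with knockout library 1 above and knockout library 2 below all others. The log2 fold change was 0.02 (95% interval -0.64 to 0.69, adjusted p = 0.962), which leaves room for a change of either sign. Its sign turned under several alternatives, among them without knockout library 1 (-0.32). Irs2 lies at chr8:10984681-11008458 on the minus strand.

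Inpp5d rose in the knockout libraries. Its product SHIP1 takes the 5-phosphate off PIP3 and is found mainly in blood cells. The gene stood at 646, 431 and 397 CPM in knockout libraries 1, 2 and 3, and at 205, 248 and 216 CPM in the wild-type libraries. Each knockout library was above each wild-type library, and knockout library 1 stood well above the other two. Mean levels were 491 ± 135 and 223 ± 22.3 CPM (SD, n = 3 each), a 2.20-fold difference (log2 fold change 1.14, SE 0.23, 95% interval 0.60 to 1.68, edgeR adjusted p = 0.00942). Over 14 alternatives in processing the log2 fold change ran from 0.90 to 1.22 and the adjusted p from 9.18e-05 to 0.0477. Inpp5d lies on chromosome 1 (chr1:87620312-87720507, plus strand), where the median log2 fold change of 507 well-expressed genes was 0.23, which is 0.40 above that of all such genes. The change of Inpp5d was 0.91 above its chromosome's median.

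The AKT kinases in the list did not pass the threshold. Akt1, the widely expressed isoform (chr12:112653821-112674884, minus strand), stood at 320, 260 and 268 CPM in the knockout libraries and at 359, 428 and 357 CPM in the wild-type libraries. Every knockout library was below every wild-type library. The knockout mean of 283 ± 32.3 CPM and the wild-type mean of 381 ± 40.6 CPM (SD, n = 3 each) gave a log2 fold change of -0.43 (SE 0.18, 95% interval -0.84 to -0.02, edgeR adjusted p = 0.104). The interval is that of a single gene and leaves out 0 narrowly, while the p adjusted over all genes did not pass in any of the 14 alternatives (0.0793 to 0.232). Akt2, known above all for insulin-driven glucose uptake (chr7:27591552-27640826, plus strand), stood at 103, 77.5 and 98.2 CPM in the knockout and at 165, 93.7 and 107 CPM in the wild-type libraries. Wild-type library 1 was the highest, and the groups overlapped (log2 fold change -0.39, 95% interval -0.99 to 0.21, edgeR adjusted p = 0.286).

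The FoxO factors differed from each other. Foxo1 (chr3:52268336-52353221, plus strand), a factor with well-known roles in lymphocytes and in metabolism, stood at 44.0, 37.6 and 24.4 CPM in knockout libraries 1, 2 and 3 and at 10.7, 7.21 and 3.44 CPM in wild-type libraries 1, 2 and 3. The lowest knockout library was above the highest wild-type library. Its means were 35.4 ± 10.0 and 7.10 ± 3.62 CPM (SD, n = 3 each), a 4.98-fold difference (log2 fold change 2.31, SE 0.45, 95% interval 1.26 to 3.37, edgeR adjusted p = 0.00837). Over the 14 alternatives the log2 fold change ran from 1.98 to 2.73 and the adjusted p from 3.84e-06 to 0.0324. An antisense gene, Gm20402, shares 674 exon bases with Foxo1 and had 0 counts in all 6 libraries. On chromosome 3 the median of 384 well-expressed genes lay 0.0046 from that of all such genes.

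Foxo3, the FoxO gene most tied to upkeep of blood stem cells (chr10:42181841-42276755, minus strand), stood at 121, 99.5 and 70.7 CPM in the knockout and at 136, 77.5 and 68.2 CPM in the wild-type libraries. The values interleaved, and the log2 fold change was 0.05 (95% interval -0.70 to 0.79, edgeR adjusted p = 0.925). Without single libraries it ran from -0.14 (wild-type library 3 left out) to 0.41, so no direction can be given. Foxo4, the X-linked member (chrX:101254528-101260873, plus strand), stood at 59.3, 48.9 and 31.5 CPM in the knockout and at 59.6, 54.3 and 47.0 CPM in the wild-type libraries. The groups overlapped through knockout libraries 1 and 2 (log2 fold change -0.20, 95% interval -0.82 to 0.41, edgeR adjusted p = 0.595).

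**Figure D2:**
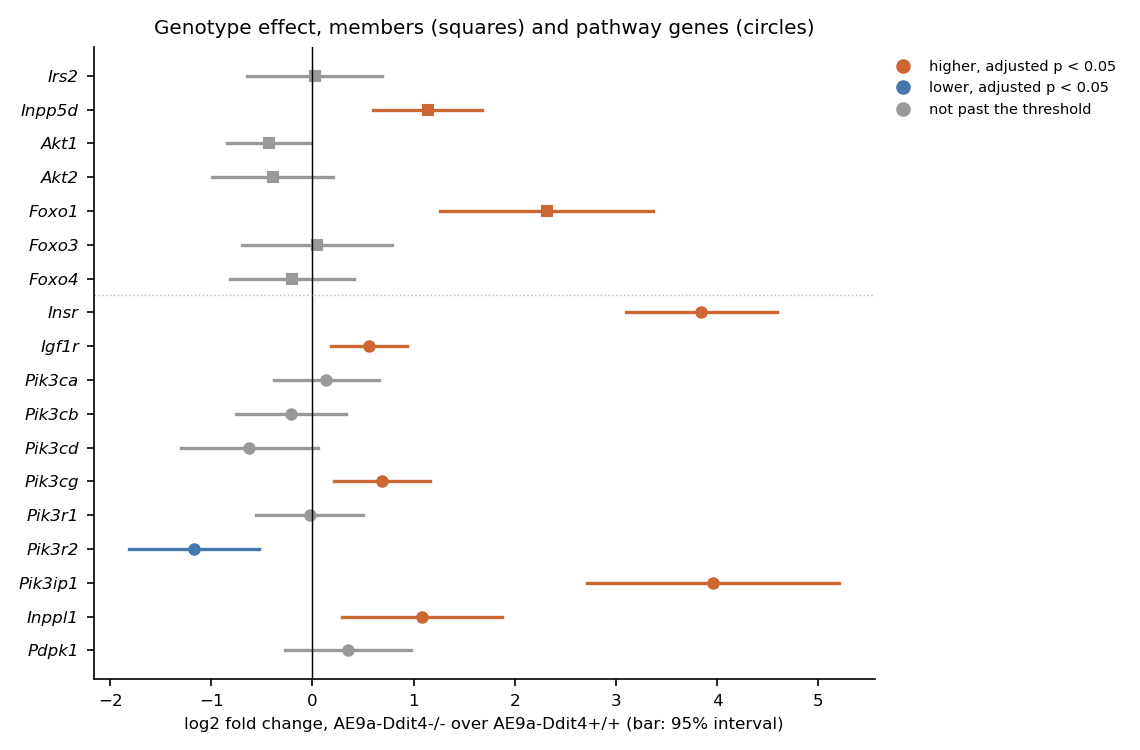
Log2 fold change of AE9a-Ddit4-/- over AE9a-Ddit4+/+ (x axis) with its 95% interval (bars) for the 7 members tested (squares) and for 11 other genes of the pathway (circles); orange is higher and blue is lower with adjusted p below 0.05, grey did not pass. Foxo1 (2.31) and Inpp5d (1.14) are the members whose points are orange, and the interval of Akt1 ends just under 0.

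Because a larger gene collects more reads at the same level, levels of different genes were compared as RPKM, CPM per kilobase of exon. In the wild-type libraries Akt1 was the highest of the 8 at 93.0 ± 9.91 RPKM (SD, n = 3), followed by Inpp5d at 29.3 ± 2.93. Akt2 (17.1), Foxo4 (15.4), Foxo3 (12.4) and Irs2 (9.74) came next, and neighbours in that order overlapped over libraries. Foxo1 was far below them at 0.820 ± 0.418 RPKM and Irs1 was at 0. In the knockout libraries Akt1 (69.0 ± 7.89 RPKM) and Inpp5d (64.6 ± 17.8 RPKM) overlapped. Foxo4 (13.4), Akt2 (13.0), Foxo3 (12.8) and Irs2 (9.89) again could not be ordered beyond their spread. Foxo1 kept its place under them at 4.08 ± 1.16 RPKM.

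Shares of a gene family within a library do not depend on how libraries are scaled. They were computed from reads per kilobase for 15 genes of 5 families and compared by exact two-sided permutation tests, which cannot give a p below 0.1 with 3 against 3 libraries. Foxo1 made up 13.3%, 13.7% and 13.3% of FoxO reads in knockout libraries 1, 2 and 3 and 3.39%, 3.12% and 1.73% in the wild-type libraries. The groups did not overlap (exact permutation p = 0.1, adjusted over the 15 shares 0.25), and the 3 knockout libraries differed by less than a percentage point. Foxo4 went the other way, with 44.6%, 44.3% and 42.6% in the knockout and 47.1%, 58.5% and 58.8% in the wild-type libraries (exact permutation p = 0.1, adjusted 0.25). Shares of a family are tied, so a larger share of any gene leaves less for the rest. The level of Foxo4 itself overlapped between groups (log2 fold change -0.20, edgeR adjusted p = 0.595). The share of Foxo3 was 42.4% ± 1.37 in the knockout and 42.4% ± 6.12 in the wild-type libraries (SD, n = 3 each, exact permutation p = 1.0). Summed FoxO reads were 30.3 ± 8.53 and 28.6 ± 6.89 RPKM (SD, n = 3 each, exact permutation p = 0.8). Foxo6, mainly a gene of the brain, stayed under 0.5% of FoxO reads in each library. Inpp5d made up 93.2% ± 2.44 and 93.4% ± 1.98 of the reads of the SHIP pair, the rest being Inppl1 (SHIP2, SD, n = 3 each).

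**Figure D3:**
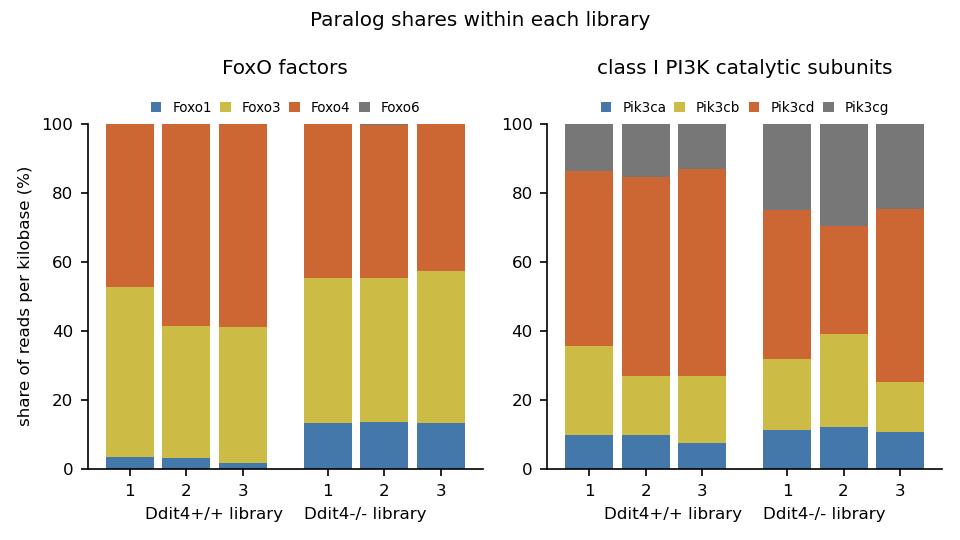
Share of each paralog in the summed reads per kilobase of its family (y axis, percent) in AE9a-Ddit4+/+ libraries 1 to 3 and AE9a-Ddit4-/- libraries 1 to 3, for the FoxO factors and the class I PI3K catalytic subunits. The Foxo1 and Pik3cg segments are larger in each knockout library than in any wild-type library.

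For each member the 2 tested genes with the most similar pattern were sought, by the root mean square distance of log2(CPM + 0.5) centred per gene over the 6 libraries. The added 0.5 flattens the pattern of low genes. Foxo1 had no gene within 0.1, and its nearest were Fzd5, a Wnt receptor gene (distance 0.171), and Sec24d, a gene of the COPII coat (0.269). Inpp5d had 8 genes within 0.1, led by Rps6ka2 (0.0586) and E230032D23Rik (0.0622). The latter is a low gene, with means of 0.279 CPM in the wild-type and 1.18 CPM in the knockout libraries (log2 fold change 2.07). Akt1 had 53, led by Gm8451 (0.0316) and Ndufb11 (0.0510), and Akt2 had 6, led by Gm10080 (0.0406) and Rab7-ps1 (0.0784). For Irs2 these were Fam89b and Gm42847, for Foxo3 6430531B16Rik and Me1, and for Foxo4 Gm16565 and Gm14292. Gm42847, 6430531B16Rik and Me1 had means under 0.5 CPM in both groups. With 6 points a gene, such likeness is a description.

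Upstream of the members, the insulin and IGF1 receptor genes and some adaptors rose. Of 107 other pathway genes, listed by role, 99 were tested, and 29 (29.3%) were higher and 11 (11.1%) lower, with a median log2 fold change of 0.24. Over all genes tested the shares were 19.4% higher and 10.7% lower. Among receptors and adaptors 4 of 12 were higher (33.3%) and 2 lower (16.7%), with a median of 0.51. Insr, the insulin receptor gene, stood at 79.1, 70.6 and 72.2 CPM in the knockout against 3.81, 7.44 and 4.18 CPM in the wild-type libraries (log2 fold change 3.84, edgeR adjusted p = 0.000447). The IGF1 receptor gene Igf1r, named after its values were seen, stood at 234, 265 and 232 against 156, 166 and 173 CPM (0.56, adjusted p = 0.0341), and its call was lost without any one of the 6 libraries (edgeR adjusted p 0.0592 to 0.137). The docking proteins Gab1 (4.57, adjusted p = 0.0012) and Pik3ap1 (1.92, adjusted p = 0.0116), the B cell adaptor for PI3K, were higher too. Grb2, the adaptor that leads to Ras, fell from 444 ± 31.9 to 233 ± 34.6 CPM (SD, n = 3 each; -0.93, adjusted p = 0.0079), and Dok1, which dampens receptor tyrosine kinases, was lower (-0.80, adjusted p = 0.0254). The call of Dok1 was lost without wild-type library 1 or 3 or knockout library 1 or 3 (adjusted p 0.0537 to 0.0772).

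Among PI3K subunits 3 of 14 were higher (21.4%, beside 19.4% of all genes tested) and 1 lower (7.14%, beside 10.7%), with a median of 0.07. Of the class I catalytic subunits, Pik3ca (0.14, adjusted p = 0.67), Pik3cb (-0.21, 0.531) and Pik3cd (-0.62, 0.143) did not pass. Pik3cg, the p110 gamma gene of leukocytes, stood at 133, 116 and 113 against 63.7, 92.8 and 68.6 CPM (0.69, edgeR adjusted p = 0.0385). Its share of the 4 catalytic subunits was 26.4% ± 2.86 in the knockout and 14.0% ± 1.22 in the wild-type libraries, while Pik3cd (p110 delta) made up 41.5% ± 9.64 and 56.1% ± 4.79 (SD, n = 3 each, exact permutation p = 0.1 for each, adjusted 0.25). The regulatory subunit gene Pik3r1 was level (-0.03, adjusted p = 0.936), Pik3r2 was lower (-1.17, 0.0167), and Pik3r3 (-0.75), Pik3r5 (0.66) and Pik3r6 (0.48) did not pass, with adjusted p of 0.566, 0.413 and 0.657. Pik3ip1, whose product inhibits the catalytic subunit, stood at 298, 149 and 147 against 8.26, 22.1 and 7.71 CPM (3.96, adjusted p = 0.00215), and the class II kinase Pik3c2b also rose (2.94, adjusted p = 0.00128). The call of Pik3cg was lost in each fit that left out 1 library other than wild-type library 2 (adjusted p 0.0834 to 0.13), and that of Pik3r2 without knockout library 1 (0.0596).

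Phosphatases and AKT regulators were mixed. Of the 7 phosphatase genes beside Inpp5d, Inpp4a (2.29, edgeR adjusted p = 0.0265) and Inppl1 (1.08, 0.0464) were higher and Inpp4b (-1.19, 0.0205) was lower, with a median of -0.23. These are 28.6% higher and 14.3% lower, beside 19.4% and 10.7% of all genes tested. Inpp4a and Inpp4b both act on PI(3,4)P2, the product of SHIP enzymes. Each of these 3 calls could be lost by leaving out 1 library. Inppl1 lost its call without any one library other than wild-type library 2 (0.0693 to 0.134), Inpp4a without wild-type library 1 or 3 or knockout library 1 (0.0815 to 0.0901) and Inpp4b without wild-type library 3 or knockout library 1 or 2 (0.0687 to 0.0734). Of 11 AKT regulators 3 were higher (27.3%) and 1 lower (9.09%), with a median of 0.18. Trib2, a pseudokinase gene, stood at 25.5, 13.6 and 21.0 against 0.348, 1.59 and 0.464 CPM (4.64, adjusted p = 0.00286). Phlpp2, a phosphatase that turns AKT off, fell from 55.4 ± 9.31 to 16.8 ± 5.44 CPM (SD, n = 3 each; -1.72, adjusted p = 0.0045). Pdpk1, the kinase that activates AKT, did not pass (0.35, adjusted p = 0.361). Them4 (2.09, 0.0424) lost its call without any one library other than wild-type library 2 (0.0743 to 0.115).

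Downstream of AKT, 2 of 9 substrate genes were higher (22.2%, beside 19.4% of all genes tested) and 1 lower (11.1%, beside 10.7%), with a median of -0.37. Tbc1d4, which links AKT to glucose transporter traffic, stood at 40.7, 58.9 and 31.9 against 1.80, 0.972 and 0.201 CPM (5.46, edgeR adjusted p = 0.00238). Akt1s1, which encodes the mTORC1 inhibitor PRAS40, stood at 50.3, 49.5 and 46.6 against 22.1, 26.1 and 17.9 CPM (1.15, adjusted p = 0.00686). Tbc1d1 was lower (-0.68, adjusted p = 0.021), a call lost without wild-type library 1 or 3 or knockout library 1 or 3 (0.0526 to 0.0698). Of 17 genes listed as FoxO regulators, with the FoxO gene Foxo6 counted among them, 2 were higher (11.8%) and 2 lower (11.8%), with a median of 0.24. The acetyltransferase gene Ep300 (0.83, 0.0178) and the 14-3-3 gene Sfn (1.04, 0.0437) were above. The 14-3-3 genes Ywhab (-0.95, 0.0178) and Ywhah (-1.18, 0.0187) were below. 14-3-3 proteins hold phosphorylated FoxO in the cytoplasm. Each of these 4 lost its call in some fit without 1 library: Ep300 without wild-type library 1 or 3 or knockout library 1 (0.0512 to 0.0653), Sfn without any other than wild-type library 2 (0.0531 to 0.135), Ywhab without wild-type library 1 (0.0585) and Ywhah without wild-type library 1 or 3 or knockout library 1 (0.0595 to 0.0648). Foxo6 was at or under 12 counts in every wild-type library and did not pass (adjusted p = 0.387).

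**Figure D4:**
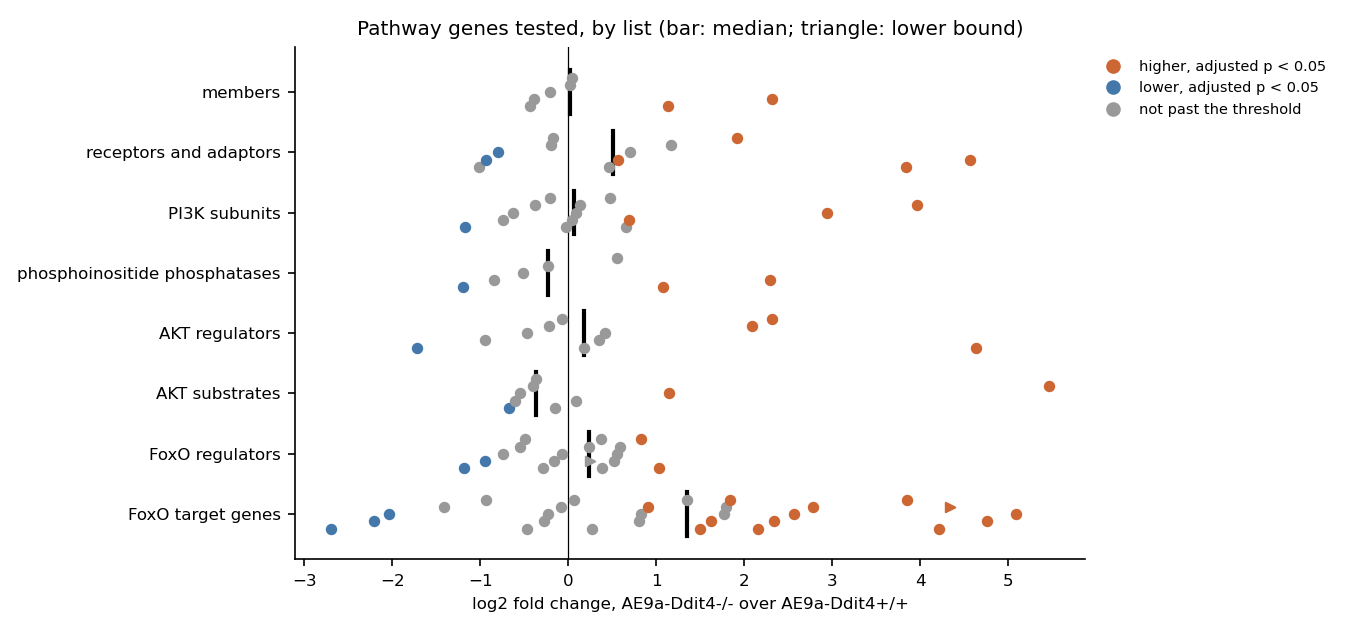
Log2 fold change of AE9a-Ddit4-/- over AE9a-Ddit4+/+ (x axis) for the 7 members and the 99 other pathway genes tested, one row a list; each point is a gene (orange higher, blue lower, grey not past adjusted p below 0.05), black bars are medians, and triangles mark genes whose wild-type libraries were all at or under 12 counts, drawn at their lower bound. The median of FoxO target genes (1.35) lies to the right of that of the members (0.02).

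Of genes known as FoxO targets in some tissue, 13 of 29 tested were higher (44.8%, beside 19.4% of all genes) and 3 lower (10.3%, beside 10.7%), with a median log2 fold change of 1.35. The counts and the median also take in genes that FoxO factors are known to repress, Ccnd1 among the higher and Ccnd2 among the lower. The share of higher genes was not tested against the other lists, and 5 more of the list (Rag1, Rag2, Pck1, G6pc and Igfbp1) had too few counts to be tested. Sesn3, a sestrin gene that restrains mTORC1, stood at 62.1, 46.0 and 28.3 CPM in the knockout against 1.52, 1.87 and 0.603 CPM in the wild-type libraries (5.09, edgeR adjusted p = 0.000891). Fasl, the death ligand gene, stood at 6.22, 1.51 and 3.43 CPM against 0, 0.0589 and 0 CPM, which is at least 20.2-fold higher against the limit of 12 counts per library. Il7r, the interleukin 7 receptor gene, stood at 13.3, 1.05 and 10.2 against 0.380, 0.472 and 0.0464 CPM (4.76, adjusted p = 0.0179), and lost its call without wild-type library 1 (0.0555) or knockout library 1 (0.0568). Further genes of the list, named after their values were seen, were Bcl2l11, the proapoptotic Bim gene (2.34, adjusted p = 0.00996), Fbxo32 (3.85, 0.0017), a ubiquitin ligase gene of muscle atrophy, Tnfsf10, the TRAIL gene (4.21, 0.000265), Ccng2 (1.50, 0.00892) and Btg1 (1.62, 0.00162), which slow the cell cycle.

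Other FoxO targets went down or did not pass. Cat, the catalase gene, stood at 34.1, 42.4 and 47.4 CPM in the knockout against 182, 139 and 187 CPM in the wild-type libraries (-2.03, edgeR adjusted p = 0.000848). Gadd45a, a DNA damage response gene, stood at 27.5, 15.9 and 39.6 against 91.5, 127 and 166 CPM (-2.21, adjusted p = 0.00518). Ccnd2, the cyclin D2 gene that FoxO factors are known to repress, stood at 23.0, 18.3 and 27.8 against 184, 104 and 159 CPM (-2.69, adjusted p = 0.000898). Ccnd1, a cyclin gene of the same known relation, rose instead (2.16, adjusted p = 0.0197, named after its value was seen), and lost its call without wild-type library 3 (0.0688) or knockout library 3 (0.0700). Of the genes best known as FoxO targets in quiescent and stressed cells, also named after their values were seen, Cdkn1b (0.28, adjusted p = 0.579), Sod2 (-0.28, 0.331), Klf2 (1.77, 0.0609) and Txnip (-1.41, 0.0547) did not pass. Klf2 passed without wild-type library 1 (1.30, adjusted p = 0.0242) or 2 (2.38, 0.0266) and Txnip without wild-type library 1 (-1.72, 0.0353), and both passed by DESeq2 (0.00902 and 0.0130).

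**Figure D5:**
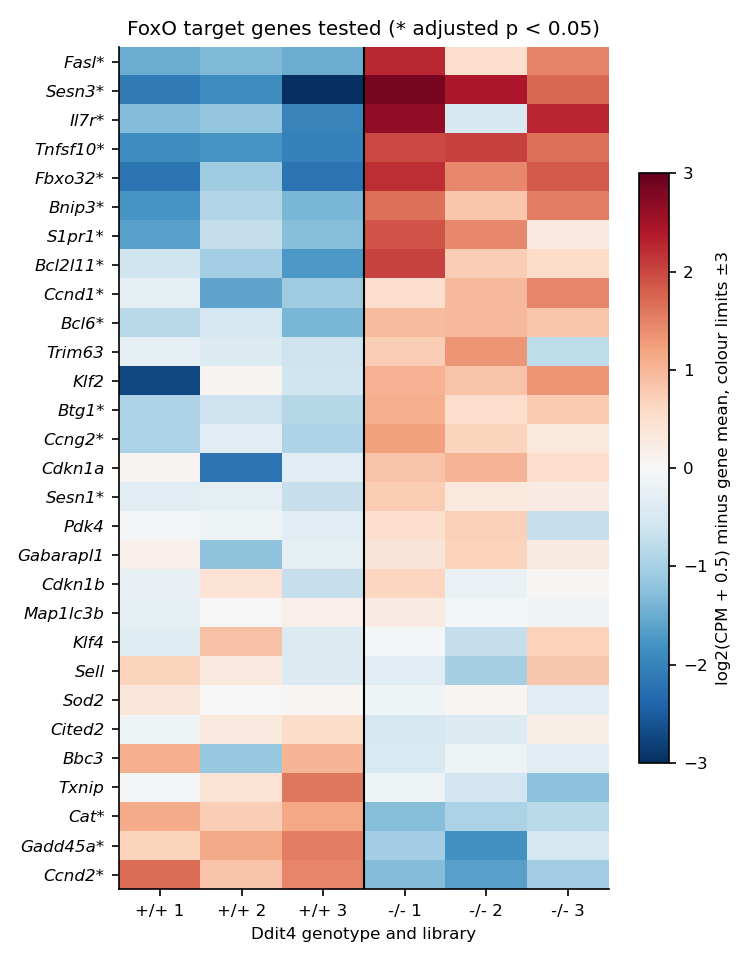
Log2(CPM + 0.5) minus the gene's mean over the 6 libraries (colour, limits of 3 either way) for the 29 FoxO target genes tested, ordered by log2 fold change, in AE9a-Ddit4+/+ libraries 1 to 3 (left) and AE9a-Ddit4-/- libraries 1 to 3 (right); an asterisk marks an adjusted p below 0.05. The 13 higher genes stand in the upper part and Cat, Gadd45a and Ccnd2 at the bottom, and Il7r is paler in knockout library 2 than in the other knockout libraries.

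Markers of other cells moved along with these genes. Beside the counts below, the shares over all genes tested were 19.4% higher and 10.7% lower. Of 11 T and NK cell markers tested, 8 were higher in the knockout libraries, and these 8 summed to 33.3 to 68.6 CPM there against 1.05 to 1.62 CPM in the wild-type libraries. The sum of the whole list, 276 to 381 against 99.3 to 220 CPM, was mostly Lat and Nkg7, which did not pass. Cd3e, Cd3g, Zap70, Ncr1 and Klrb1c were at or under 12 counts in every wild-type library, and Ncr1 in the knockout libraries too. Of 7 B cell markers 6 were higher (64.6 to 128 against 1.05 to 4.91 CPM), of 9 megakaryocyte and platelet markers 7 were higher and 1 lower (2290 to 3045 against 106 to 171 CPM), and of 8 stroma and endothelium markers 5 were higher (185 to 212 against 6.25 to 9.99 CPM). That last sum was mostly Pecam1 in the knockout libraries (123, 143 and 144 CPM). The higher genes were Cdh5, Pecam1, Kdr, Tek and Cxcl12, while Col1a1, Col1a2 and Lepr did not pass by edgeR. Erythroid markers were lower in 10 of 11 (376 to 967 against 7617 to 16192 CPM). Neutrophil markers were lower in 4 and higher in 1 of 10 (1983 to 5094 against 6881 to 11264 CPM), and none of 8 monocyte and macrophage markers passed by edgeR, with 1, Cd68, at an unadjusted p below 0.05 (114 to 455 against 248 to 449 CPM). Cd3e stood at 5.77, 0.609 and 4.31 CPM in knockout libraries 1, 2 and 3, where Foxo1 stood at 44.0, 37.6 and 24.4 CPM and Il7r at 13.3, 1.05 and 10.2 CPM. Cd3d, Cd3g, Cd4, Cd8a, Lck and Zap70 were also lowest in knockout library 2, while Klrb1c was highest there (2.83, 8.63 and 4.27 CPM). The part of these cell types in the changes of Foxo1, Inpp5d and the FoxO targets was not tested.

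The promoters of the 2 members that rose are shown because they are where a shared sequence would be looked for, from RefSeq (GRCm38.p6), as 300 bases that start 250 before the transcription start. Windows were found for 7 of the 8 members and for 94 of all 115 genes listed. The Foxo1 window lies at chr3:52268087-52268386 on the plus strand, and its capitals mark ATTGG, the CCAAT box read from the other strand. The Inpp5d window lies at chr1:87620062-87620361 on the plus strand, and its capitals mark AGGAAGT, a core of ETS family sites.
Foxo1: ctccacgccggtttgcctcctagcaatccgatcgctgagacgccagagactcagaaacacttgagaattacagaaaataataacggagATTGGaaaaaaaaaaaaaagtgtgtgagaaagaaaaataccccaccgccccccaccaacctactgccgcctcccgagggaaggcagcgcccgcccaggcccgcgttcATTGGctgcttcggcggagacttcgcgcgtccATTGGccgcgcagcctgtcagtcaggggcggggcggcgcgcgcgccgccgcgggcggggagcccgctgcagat
Inpp5d: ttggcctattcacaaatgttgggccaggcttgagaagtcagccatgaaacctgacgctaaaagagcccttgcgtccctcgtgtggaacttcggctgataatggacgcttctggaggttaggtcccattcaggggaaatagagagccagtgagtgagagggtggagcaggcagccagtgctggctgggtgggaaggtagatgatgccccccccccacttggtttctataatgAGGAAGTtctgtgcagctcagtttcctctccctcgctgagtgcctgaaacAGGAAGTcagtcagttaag

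The Foxo1 window held ATTGG 3 times, 162, 55 and 23 bases before the start. The Inpp5d window held AGGAAGT 2 times, 19 bases before and 32 bases after the start. Searched on both strands, CCAAT was in 37.4% of all 32851 promoter windows and AGGAAGT in 9.35%, and both sets of letters were chosen after the windows had been read. TGTGGT, the core that RUNX proteins bind and AML1-ETO shares through its Runt domain, was in 16.8% of all windows and, among the members, in a window of Akt2. TGTTTAC, the core of forkhead sites, was in 3.65% of all windows and in 11 of the 128 windows (8.59%) of the 94 listed genes, which belong to 10 genes. Among the members it was found in 1 of the 2 windows of Akt1 (161 bases before the transcription start of that window), and among the 29 FoxO targets with a window in Bbc3, Bcl2l11, Btg1, Sesn1, Trim63 and Txnip. A match is a description of letters, not a site.

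The stretches around TGTTTAC (or GTAAACA on the other strand) in Akt1 and in the genes past the threshold that held it are shown for the flanks, with the core in capitals. They lie at chr12:112675025-112675059 (minus strand, Akt1), chr12:32208542-32208576 (minus strand, Pik3cg), chr2:128125797-128125831 (plus strand, Bcl2l11), chr10:41810582-41810616 (plus strand, Sesn1) and chr10:96616783-96616817 (plus strand, Btg1).
Akt1: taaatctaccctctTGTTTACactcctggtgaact
Pik3cg: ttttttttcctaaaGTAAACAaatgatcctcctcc
Bcl2l11: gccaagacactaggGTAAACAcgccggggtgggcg
Sesn1: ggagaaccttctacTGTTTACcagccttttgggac
Btg1: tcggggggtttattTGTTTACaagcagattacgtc

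Apart from Btg1, each of these genes has 2 windows from different RefSeq starts, and the core was in 1 of them. From the transcription start that its window was drawn around, the core lay 227 bases upstream in Bcl2l11 and 204 in Btg1, and 23 bases downstream in Sesn1. In Pik3cg it lay 92 bases before the inner of the 2 starts and thus inside the gene as annotated from the outer start. Akt1, with the core, was below wild type in each knockout library without passing the threshold, while Pik3cg, Bcl2l11, Btg1 and Sesn1 (log2 fold change 0.91, edgeR adjusted p = 0.0179) were higher. Txnip and Bbc3, which hold it too, had log2 fold changes of -1.41 and -0.94 and did not pass in the fit of all libraries. Mapkap1 (-0.94, edgeR adjusted p = 0.0525), Mdm2 (0.09, 0.744) and Trim63 (1.80, 0.142), the remaining genes with the core, did not pass either. Without wild-type library 2 Bbc3 was lower (-1.38, edgeR adjusted p = 0.00314), and without wild-type library 3 the call of Sesn1 was lost (0.0690). Txnip passed without wild-type library 1 (0.0353).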

How the data were processed

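The authors deposited 1 table of whole-number counts per gene, neither scaled nor rounded here, with a column per library. Per the labels, libraries were made with an mRNA kit, whereas the study's methods describe rRNA depletion and a directional kit, read as 150-bp pairs. The submitters' processing notes name GRCm38 and mm10. The aligner, counting tool, annotation and use of strand are not given in the sources used here. Low counts piled up at multiples of 4 (1.40 to 1.62 times more genes had 4, 8 or 12 counts than had 2, 6 or 10), so a limit of detection of 12 counts was used, which covers counting error only (no molecular identifiers are named, so reads may not be independent).

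Groups came from the sample titles (3 libraries each). All genes passing filterByExpr (18375 of 55421) were fitted in R 4.3.3 with edgeR 4.0.16 (TMM scaling, quasi-likelihood F-test, genotype as the only term), and p-values were adjusted by Benjamini-Hochberg over them. The fit was tested on simulated data. Positions and exon lengths came from GENCODE M21 (GRCm38), which held 99.7% of the identifiers. Shares were tested by exact permutation in Python 3.11.15 with scipy 1.17.1. Alternatives were RLE scaling, DESeq2 1.42.0, other low-count filters, no mitochondrial genes, counts divided by 4, a threshold of 0.01, a replicate block, each library left out, and for shares raw counts or coding length. Named genes were the 8 members, Ddit4, the class I PI3K subunits, Inppl1, Pdpk1, Foxo6, the 3 largest changes past the threshold per list and direction, and the 2 nearest genes per member. Some results of the listed genes are not reported here. The members and lists were chosen with earlier results of these data known.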

Additional observations from a re-analysis of the deposited data

How the results depend on the processing

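Foxo1 and Inpp5d stayed past the threshold and Akt1, Akt2 and Foxo4 short of it, with their directions, in all 14 alternatives, and the count of members past the threshold was 2 higher and 0 lower in each. Foxo3 ran from -0.14 to 0.41 with single libraries left out. Irs2 ran from -0.32 to 0.16 likewise, and was -0.014 with no low-count filter and -0.040 with the replicate number as a block. The count of other pathway genes, 29 higher and 11 lower, went to 18 and 5 at a threshold of 0.01 and to 18 and 6 with the replicate block, and the lower count ran from 6 (without knockout library 1) to 16 with single libraries left out, being 7 without wild-type library 3. Pik3r1 was 0.036 with at least 10 counts in every library, 0.0033 with the replicate block and -0.22 to 0.13 with single libraries left out, where Pik3r5 ran from -0.063 to 1.10, Pik3r6 from -0.32 to 1.43 and Cdkn1b from -0.0048 to 0.63. The difference in the share of Foxo1 was 10.7 percentage points by reads per kilobase, 15.3 by raw counts and 14.9 by coding length, and that of Foxo3 was 0.09, or -5.34 by raw counts. Same-numbered libraries did not deviate together (r = -0.165, -0.194 and -0.0495). With deviations centred within groups of 3, this cannot settle whether same-numbered libraries were prepared together. The block moved the calls over all genes from 5535 to 2964, and other settings gave 3840 to 7097. Foxo6, Pik3r3, Il7r and Fasl could not be fitted in some settings, where too few counts passed. Repeated counting of unknown extent limits the precision of low genes such as Irs1. The cause was not tested for any of these changes.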
